A study of Mus musculus with 8 samples.

Results

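The mRNAs of the mouse egg coat and of the egg proteins that meet the sperm were followed in germinal vesicle (GV) oocytes lacking the deadenylases CNOT7 and CNOT8. The set has 7 genes, taken by symbol from the 46078 genes of the deposited count table: Zp1, Zp2 and Zp3 for the zona pellucida, Astl for the cortical granule protease ovastacin, and Cd9, Cd81 and Izumo1r for the egg membrane. Izumo1r is listed under its current symbol, not as Folr4. All 7 genes passed the filter on low counts, among 19241 tested genes.

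RNA-seq compared CNOT7&8 KO oocytes (4 libraries) with Zp3-Cre control oocytes (4 libraries), and each library came from 100 oocytes. The KO females carried Cnot7 fl/fl and Cnot8 fl/fl alleles and the Zp3-Cre transgene, and the control females carried Zp3-Cre. In that transgene the promoter of Zp3, itself one of the 7 genes, drives Cre in growing oocytes. Females of both groups were on a C57BL/6J background, were 4 weeks old and gave GV oocytes 48 h after an injection of pregnant mare serum gonadotropin. The question put to these 7 genes is which of their mRNAs differ in amount when both deadenylases are removed. No source says that the libraries of a group came from separate animals, so the p-values measure the spread between libraries.

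CNOT7 and CNOT8 are catalytic subunits of the CCR4-NOT complex, which shortens the poly(A) tails of mRNAs and thereby starts their decay. A growing mouse oocyte secretes ZP1, ZP2 and ZP3, which assemble outside the cell as filaments of the zona pellucida. ZP2 carries the site that sperm bind, ZP1 cross-links the filaments, and after fertilization ovastacin is released from cortical granules and cleaves ZP2, so that further sperm no longer bind. On the membrane of the egg, JUNO, the product of Izumo1r, is the receptor of the sperm protein IZUMO1, and the tetraspanins CD9 and CD81 take part in the adhesion and fusion that follow.

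The 3′ end of an mRNA is where the poly(A) tail is added and where deadenylases work, so the end of each transcript is shown as GENCODE vM21 annotates it on GRCm38, the build of the deposited counts. Each line gives 30 bases, 5′ to 3′ on the strand of the gene, with the poly(A) signal AATAAA in capitals.
Zp1: ttaaatggactcAATAAAccattgtttgaa
Zp2: attggacttgcaAATAAAgagactgcagtt
Zp3: tatcccttccgcAATAAAagaagaaactca
Astl: ggaaaaggtagaAATAAAgttgggtgtttg
Cd9: aatttgatacatAATAAAagattataacag
Cd81: aaacagtcatttAATAAAggaggaaaaaaa
Izumo1r: catggtaccttcAATAAAaggctaggaaac

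The 3 zona genes had very short 3′UTRs. In the transcript with the longest coding sequence, the 3′UTR of Zp3 was 13 bases, that of Zp1 34 bases and that of Zp2 49 bases. Among 15413 tested protein-coding genes the median was 877 bases, and 7.88% had at most 100 bases. In Zp3 the TAA stop codon is part of the AATAAA itself, and the transcript ends 12 bases after the signal. In Zp1 the signal starts 8 bases after the TAA stop codon, and in Zp2 it starts 11 bases after the TGA stop codon. The other 4 genes had longer ends, with a 3′UTR of 876 bases in Astl, 560 in Cd81, 395 in Cd9 and 333 in Izumo1r, and their signals start 853, 525, 375 and 311 bases after the stop codon. None of the 7 3′UTRs held TTTTAT, a cytoplasmic polyadenylation element that recruits CPEB, or TGTAAATA, a Pumilio element, both read on the strand of the mRNA. Among 14778 genes with a 3′UTR of at least 50 bases, 53.0% held the first and 11.1% the second. ATTTA, the core of AU-rich elements, was found in Cd9 and Cd81 and in 66.2% of those 14778 genes. These searches describe letters in annotated sequence, and a 3′UTR of 13 to 49 bases has little room for any of them.

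The genes lie on different chromosomes except Zp2 and Cd81, which share chromosome 7. In GRCm38, Zp1 (ENSMUSG00000024734) is at chr19:10914287-10920632 on the minus strand, Zp2 (ENSMUSG00000030911) at chr7:120126772-120145291 on the minus strand, and Zp3 (ENSMUSG00000004948) at chr5:135980099-135988624 on the plus strand. Astl (ENSMUSG00000050468) is at chr2:127338639-127357651 on the plus strand. Cd9 (ENSMUSG00000030342) is at chr6:125460266-125494791 on the minus strand, Cd81 (ENSMUSG00000037706) at chr7:143052739-143067934 on the plus strand, and Izumo1r (ENSMUSG00000031933) at chr9:14885814-14903949 on the minus strand. The strand setting of the counting is not given in the sources used here. Cd9 shares 218 exon bases with Gm26728 on the opposite strand and Cd81 shares 104 with R74862, but these neighbours had at most 0.220 and 0.219 CPM (a gene's counts scaled to a common library size) in any library.

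Libraries held 14943671 to 44092144 counts in the control group and 8639444 to 26784110 in the KO group. CPM values are relative to the library size after TMM scaling, which had factors of 0.849 to 0.943 in control and 1.07 to 1.14 in KO libraries. A signal of 3 counts, taken as the detection floor, was 0.0802 CPM in the deepest library and 0.326 CPM in the shallowest, and it covers counting error only. Of the targeted genes, Cnot8 checked the labels, with a log2 fold change of -2.25 and no overlap between groups. Cnot7 was at 77.1% of the control mean, a log2 fold change of -0.38 that is close to the median of abundant genes (-0.37 at 100 CPM or more), so its counts do not check the labels. Of 10 oocyte markers, all were tested, 6 were lower and 1 was higher in KO libraries, with a median log2 fold change of -0.36. Each averaged over 100 CPM, and of all genes at 100 CPM or more 55.2% were lower and 8.37% higher. The count of the markers thus lay near that background. Their summed level was 18420 to 19930 CPM in control and 13530 to 16480 CPM in KO libraries. Control replicate 1 and KO replicate 4, the deepest library of each group, stood apart from the rest. They had the least 18S ribosomal RNA of their groups (0.0504% and 0.559% of counts), and across 8710 genes of at least 10 CPM their deviations from the group mean fell with GC content (Spearman rho -0.60 and -0.55, across genes and without a test). In the other libraries that correlation was between -0.21 and 0.65. The deviations of control replicate 1 and KO replicate 4 also rose with transcript length (Spearman rho 0.35 and 0.43, across genes and without a test). In the other libraries the correlation with length was between -0.38 and -0.13. Results are therefore also given without control replicate 1 and KO replicate 4.

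Relative to TMM-scaled library size, Zp1, Zp3 and Izumo1r mRNA were lower and Cd81 mRNA was higher in CNOT7&8 KO than in control libraries. Zp2, Astl and Cd9 did not pass the test. The amount of mRNA per oocyte was not measured. Zp1 was at 66.9% of the control mean, Zp3 at 77.2% and Izumo1r at 48.8%, and Cd81 was at 251%. The calls of Zp1 and Izumo1r held in all 18 alternative analyses, that of Cd81 was lost in 4 that left out 1 library, and that of Zp3 held in 4 of 18. Calls are from edgeR's quasi-likelihood test across all tested genes, with Benjamini-Hochberg adjustment at 0.05. The 3 lower genes among 7 compare with 24.1% of all tested genes, and the 1 higher gene with 31.2%. Izumo1r and Cd81 also changed at least 2-fold and so met the criteria for differentially expressed genes (DEGs), which 6.56% of tested genes met downward, 23.8% upward and 30.4% in either direction. Zp1 was the one gene of the 7 whose groups did not overlap, whereas 48.4% of all tested genes had no overlap, 21.4% with KO lower and 27% with KO higher. The median log2 fold change of all tested genes was 0.12, and it was -0.37 for the 2414 genes that averaged 100 CPM or more. The change of Zp3 (-0.37) was close to that median of abundant genes. Of those abundant genes 55.2% were lower and 8.37% higher, and the 5 members among them, Zp1, Zp2, Zp3, Astl and Izumo1r, had 3 lower and none higher. A set of 7 is too small to be told from these backgrounds by its counts.

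**Figure D1:**
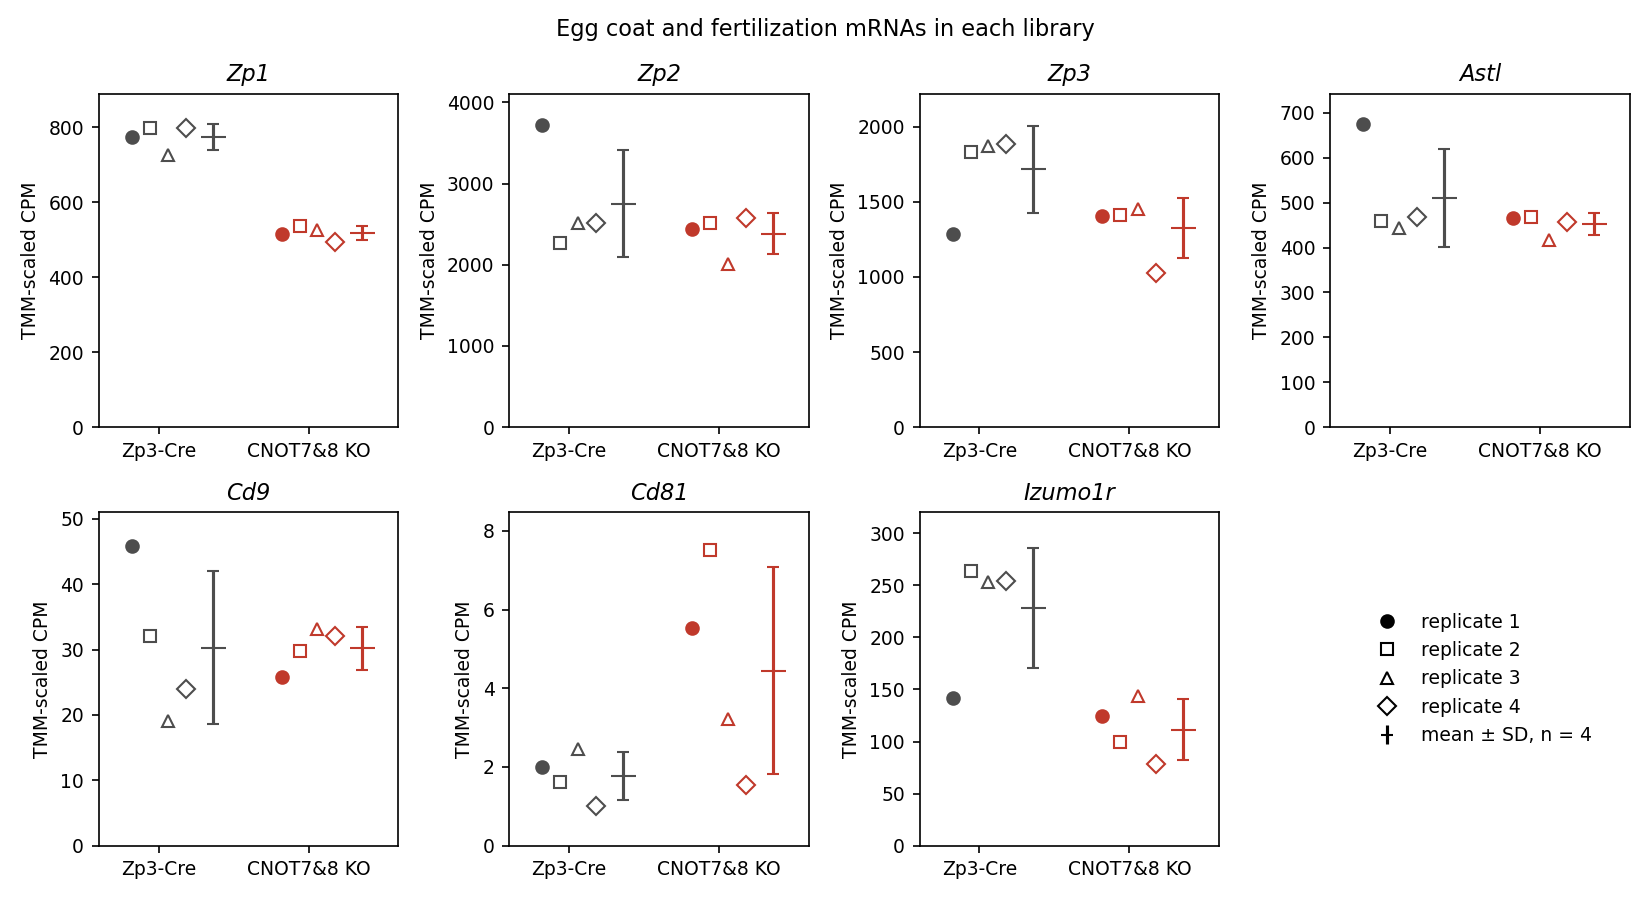
TMM-scaled CPM (vertical axes, each from 0) of the 7 mRNAs in the 4 Zp3-Cre control libraries (grey) and the 4 CNOT7&8 KO libraries (red); marker shapes give the replicate number and the bars the mean ± SD. Zp1 is the one gene with no overlap between groups, and control replicate 1 (filled grey circle) lies apart from the other 3 controls for Zp2, Zp3, Astl and Izumo1r.

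Zp1 mRNA fell in every KO library. It was at 774, 798, 726 and 799.7 CPM in control replicates 1 to 4 and at 515, 537, 527 and 493 CPM in KO replicates 1 to 4. The lowest control library was above the highest KO library. The means were 774 ± 34.3 and 518 ± 18.8 CPM (SD, n = 4), and the coefficient of variation was 4.43% and 3.63%, so this was also the steadiest of the 7 mRNAs. Its log2 fold change was -0.58 (SE 0.091, 95% interval -0.78 to -0.38, edgeR adjusted p = 0.000198). A two-sided exact permutation test on the 8 CPM values gave p = 0.0286, the smallest that 70 assignments allow. The decrease is under 2-fold, and Zp1 was not a DEG. Without control replicate 1 and KO replicate 4 the change was -0.56 (edgeR adjusted p = 3e-05).

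Zp2 mRNA, the most abundant of the 7 in counts, was at 3720, 2271, 2510 and 2518 CPM in control libraries and at 2440, 2513, 2015 and 2572 CPM in KO libraries. Control replicate 1 was far above the other libraries, and the rest of the control values lay within the KO range. The means were 2755 ± 654 and 2385 ± 253 CPM (SD, n = 4). The log2 fold change was -0.21 (SE 0.15, 95% interval -0.54 to 0.12, edgeR adjusted p = 0.265), so the interval reaches from a clear decrease to a small increase. It was -0.067 without control replicate 1 and KO replicate 4, and it turned positive when libraries were scaled by their size alone (0.082) or by TMM restricted to genes of 10 CPM or more (0.055).

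Zp3 mRNA encodes the partner with which ZP2 is built into filaments. It was at 1284, 1830, 1871 and 1884 CPM in control libraries and at 1408, 1415, 1450 and 1027 CPM in KO libraries. The odd libraries were control replicate 1, the lowest control, and KO replicate 4, the lowest KO, and leaving them aside every control was above every KO library. The means were 1717 ± 290 and 1325 ± 199 CPM (SD, n = 4), with a log2 fold change of -0.37 (SE 0.15, 95% interval -0.70 to -0.051, edgeR adjusted p = 0.0485). The exact permutation test gave p = 0.114. Without both odd libraries the decrease was of the same size, -0.39, at an edgeR adjusted p of 0.000262. The call was close to the threshold: it was kept without control replicate 1 alone (-0.49) and lost without any single one of the other 7 libraries (-0.41 to -0.26, edgeR adjusted p 0.0738 to 0.166). It was also lost with RLE size factors, DESeq2 (both -0.37) and other settings, among them library size alone (-0.099) and TMM restricted to genes of 10 CPM or more (-0.14), in all of which the direction was kept.

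The summed zona mRNAs stood at 5779, 4899, 5107 and 5202 CPM in control and 4362, 4465, 3992 and 4093 CPM in KO libraries, which is 80.6% of the control mean in the KO group. As a share of raw counts, without TMM scaling, the 7 genes together took 0.520% to 0.564% in control and 0.511% to 0.562% in KO libraries. These ranges overlap nearly in full. The size of the decrease thus rests on the scaling. Choosing library size alone in place of TMM moved the median of all genes by 0.29 on the log2 scale, and TMM restricted to genes of 10 CPM or more moved it by 0.25.

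Astl encodes ovastacin, the protease of the cortical granules that cleaves ZP2. Its mRNA was at 674, 459, 444.5 and 467 CPM in control libraries and at 467, 469, 416 and 456 CPM in KO libraries. Apart from control replicate 1 all values lay between 416 and 469 CPM. The means were 511 ± 109 and 452 ± 24.4 CPM (SD, n = 4), with a log2 fold change of -0.18 (SE 0.14, 95% interval -0.47 to 0.12, edgeR adjusted p = 0.281). Without control replicate 1 and KO replicate 4 it was -0.021, and it was 0.11 under library size alone and 0.084 under TMM restricted to genes of 10 CPM or more.

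On the egg membrane, Cd9 mRNA was at 45.9, 32.0, 19.1 and 24.0 CPM in control libraries and at 25.7, 29.8, 33.1 and 32.2 CPM in KO libraries. The KO values lay inside the control range. The means of 30.3 ± 11.7 and 30.2 ± 3.29 CPM (SD, n = 4) were nearly equal, but the log2 fold change of -0.0076 had a 95% interval of -0.50 to 0.49 (edgeR adjusted p = 0.979), which leaves changes of some size in either direction undetectable with these libraries. CD9 is the tetraspanin of the egg that sperm fusion needs most.

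Cd81, the second tetraspanin, was a rare mRNA. It had 75, 33, 36 and 14 counts in control libraries and 51, 137, 52 and 45 counts in KO libraries, which is 2.01, 1.63, 2.45 and 1.02 CPM against 5.54, 7.53, 3.21 and 1.53 CPM. All 8 libraries were above the floor of 3 counts. The first 3 KO libraries were above every control, and KO replicate 4 was within the control range. The means were 1.78 ± 0.605 and 4.45 ± 2.63 CPM (SD, n = 4), with a log2 fold change of 1.29 (SE 0.43, 95% interval 0.35 to 2.23, edgeR adjusted p = 0.0240). The exact permutation test gave p = 0.114. The increase was not called without control replicate 2, control replicate 4, KO replicate 1 or KO replicate 2, where it was 1.25, 1.12, 1.21 and 0.90 (edgeR adjusted p 0.0554 to 0.0983). Without control replicate 1 and KO replicate 4 it was 1.67 (edgeR adjusted p = 0.00155).

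Cd81 is also expressed by the somatic cells around the oocyte, and the summed markers of such cells were higher in KO libraries, although single markers moved in both directions. Of 20 granulosa and cumulus markers, 19 were tested, 9 were higher and 1 lower, where 31.2% of all tested genes were higher. Their sum was 197, 137, 160 and 162 CPM in control and 362, 360, 281 and 277 CPM in KO libraries. Nr5a2, the most abundant of them, went from 56.6 ± 9.28 to 122 ± 8.26 CPM (SD, n = 4), whereas Cyp19a1, the aromatase gene and second in abundance, fell from 58.5 to 31.4 CPM (edgeR adjusted p = 0.000507). Others among the 9 higher were Ptgs2 (2.94 to 36.7 CPM) and Kitl (16.0 to 43.4 CPM). So were Gja1 (7.85 to 32.5 CPM) and Inha (6.86 to 25.9 CPM), each with at least 1 KO library inside the control range. Amh, Star, Lhcgr and Has2 had lower means in KO libraries and did not pass the test. Foxl2, a defining granulosa factor, had at most 1 count in any library. The sum of 10 theca and stroma markers was 4.59 to 6.99 CPM in control and 9.44 to 11.7 CPM in KO libraries. Of the 9 tested, 2 were higher, Ptch1 (mean 1.954 to 5.999 CPM) and Gli1 (0.468 to 1.43 CPM). Col3a1 was lower (0.374 to 0.0615 CPM). The sum of 12 blood and immune markers was 1.10 to 2.47 and 3.58 to 5.43 CPM, with the 4 haemoglobin genes at 0. Of the 4 tested, 2 were higher, Cd68 (1.204 to 3.245 CPM) and Ptprc (0.1223 to 0.6155 CPM), and none was lower. Csf1r had a lower mean in KO libraries (0.3281 to 0.1496 CPM) and did not pass the test. The part of these transcripts in the Cd81 counts was not tested, and in bulk libraries more cells of another type and more RNA per oocyte cannot be told apart.

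Izumo1r, the gene of JUNO, had the largest decrease of the 7. It was at 142, 264, 254 and 254 CPM in control libraries and at 125, 99.2, 144 and 78.0 CPM in KO libraries. Control replicates 2 to 4 were well above every KO library, while control replicate 1 was just below KO replicate 3. The means were 228 ± 57.9 and 112 ± 28.9 CPM (SD, n = 4), and the log2 fold change was -1.04 (SE 0.22, 95% interval -1.51 to -0.56, edgeR adjusted p = 0.00162). The exact permutation test gave p = 0.0571. Without control replicate 1 and KO replicate 4 the change was -1.07 (edgeR adjusted p = 5.24e-06). It stayed lower in all 18 alternative analyses, at -1.21 to -0.76, but its size lies at the 2-fold limit, so that the DEG call was lost without control replicate 2, 3 or 4 or KO replicate 2 or 4, where the change was between -0.98 and -0.89. The DEG call also ended under library size alone (-0.76), TMM restricted to genes of 10 CPM or more (-0.80), upper quartile scaling (-0.95) and a filter of 1 CPM in 4 libraries (-0.97).

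**Figure D2:**
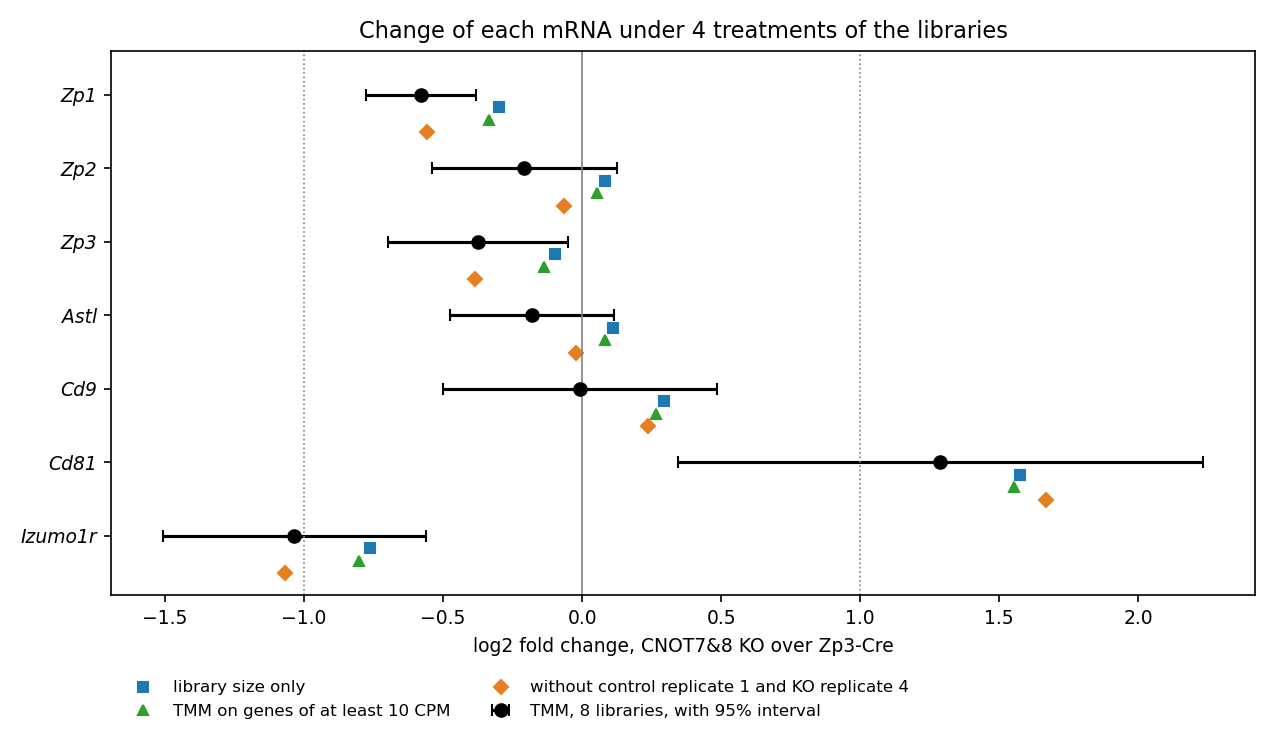
Log2 fold change of each mRNA, CNOT7&8 KO over Zp3-Cre control (horizontal axis), from edgeR with TMM scaling and all 8 libraries (black points with 95% intervals), with library size only (blue), with TMM restricted to genes of 10 CPM or more (green) and without control replicate 1 and KO replicate 4 (orange); dotted lines mark 2-fold. Zp1, Zp3 and Izumo1r stay below 0 and Cd81 above 0 in all 4, while Zp2, Astl and Cd9 lie on both sides of 0.

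Ratios between the mRNAs of 1 library do not depend on library scaling, and 6 were compared between groups with two-sided exact permutation tests and Benjamini-Hochberg adjustment over the 6. None passed, and all adjusted p-values were at least 0.343. With 4 libraries per group and a smallest p of 0.0286, no ratio could pass unless at least 4 of the 6 were fully separated, so these tests say little, and the values are given as a description. The ratio of Astl to Zp2, the protease to its substrate, was 0.181, 0.202, 0.177 and 0.186 in control and 0.191, 0.186, 0.207 and 0.177 in KO libraries. It was nearly the same in all 8 libraries, including those that stood apart, and differed by 0.029 on the log2 scale (exact permutation p = 0.6). The ratio of Zp1 to Zp2 was 0.208, 0.351, 0.289 and 0.318 in control and 0.211, 0.214, 0.262 and 0.192 in KO libraries. It was lower in KO on average, by -0.39 on the log2 scale, but control replicate 1 fell among the KO values (exact permutation p = 0.114, adjusted p = 0.343). The ratio of Zp2 to Zp3 lay between 1.24 and 2.90 in control and between 1.39 and 2.50 in KO libraries, a difference of 0.18 (exact permutation p = 0.571). That of Zp1 to Zp3 ranged from 0.388 to 0.603 and from 0.364 to 0.480, a difference of -0.21 (exact permutation p = 0.286). Between membrane genes, Cd9 to Cd81 lay between 7.81 and 23.5 in control and between 3.96 and 20.98 in KO libraries, a difference of -1.09 (exact permutation p = 0.2), and Izumo1r to Cd9 ranged from 3.09 to 13.3 and from 2.43 to 4.84, a difference of -1.10 (exact permutation p = 0.114). In both the ranges of the groups overlap.

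Levels of different genes were compared per kilobase of the union of annotated exons. In control oocytes Zp3 stood at 1298 ± 219 CPM per kilobase, Zp2 at 1011 ± 240, Zp1 at 391 ± 17.3, Astl at 199.8 ± 42.6, Izumo1r at 98.4 ± 25.0, Cd9 at 14.8 ± 5.73 and Cd81 at 0.617 ± 0.210 (SD, n = 4). In KO oocytes the values were 1002 ± 151 for Zp3, 876 ± 92.8 for Zp2, 262 ± 9.50 for Zp1, 177 ± 9.51 for Astl, 48.1 ± 12.5 for Izumo1r, 14.8 ± 1.61 for Cd9 and 1.55 ± 0.912 CPM per kilobase for Cd81. The order of the 7 means was the same in both groups, and the ranges of neighbours over the libraries were separate except for Zp3 and Zp2, which overlap in both groups. With the length of the longest transcript in its place, Astl (187 to 284) and Izumo1r (109.8 to 205) also overlapped in control libraries. Control replicate 1 had 1366 CPM per kilobase of Zp2 against 970 of Zp3, and KO replicate 4 had 944 against 777, while in the other libraries Zp3 was higher. By CPM, without length, Zp2 ranked 18 among the 19241 tested genes in control and 16 in KO oocytes, Zp3 ranked 44 and 40, Zp1 151 and 181, Astl 306 and 232, Izumo1r 1036 and 1973, Cd9 5744 and 5643, and Cd81 11739 and 10847. Izumo1r and Cd81 moved the furthest in rank.

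**Figure D3:**
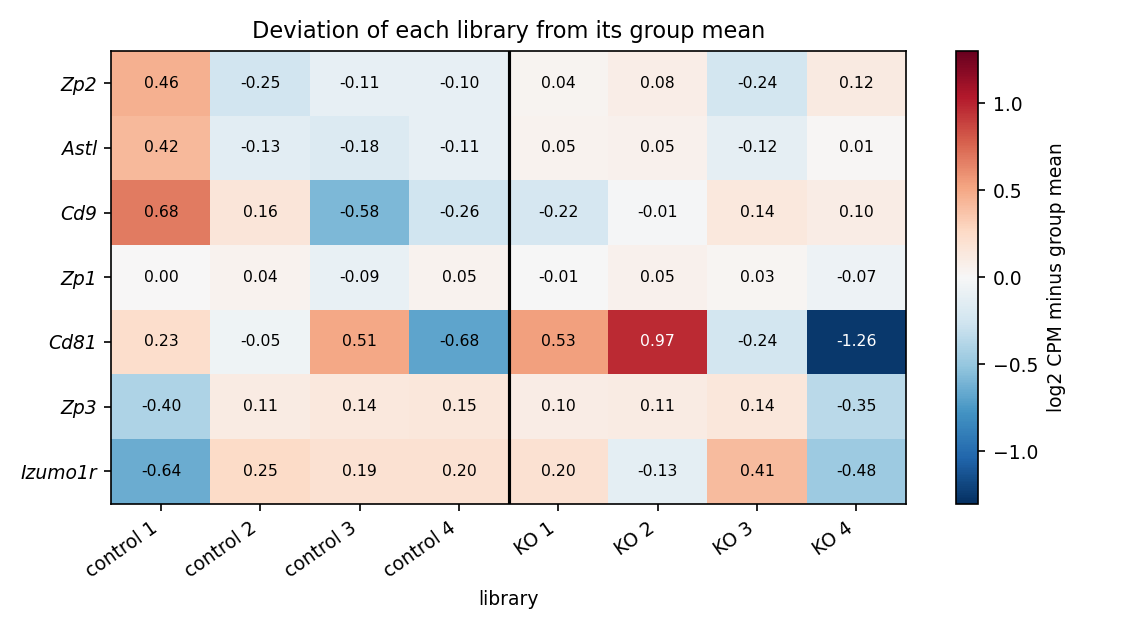
Deviation of each library from the mean of its group (log2 CPM, colour and printed value) for the 7 mRNAs (rows) in 4 control and 4 KO libraries (columns). In control replicate 1 Zp2, Astl and Cd9 are up by 0.46, 0.42 and 0.68 while Zp3 and Izumo1r are at -0.40 and -0.64, and in KO replicate 4 Zp3 and Izumo1r are at -0.35 and -0.48.

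The spread between libraries of 1 group had a pattern that several of the 7 genes shared. In control replicate 1, Zp2, Astl and Cd9 lay above the group mean by 0.46, 0.42 and 0.68 on the log2 scale, Zp3 and Izumo1r lay at -0.40 and -0.64, and Zp1 was at the mean. In KO replicate 4, Zp3 and Izumo1r were again low, at -0.35 and -0.48, and Zp2 was at 0.12. The transcripts of Zp3 and Izumo1r have a GC content of 56.1% and 56.7%, and those of Zp2 and Cd9 46.6% and 45.9%, with Astl at 53.7%, Cd81 at 52.3% and Zp1 at 55.1%. The roles of GC content and of transcript length in these deviations were not tested.

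The genes whose levels were most like those of a member over the 8 libraries were ranked by Pearson's r of log2 CPM among 8722 genes of at least 10 CPM, as a description, since all points share libraries, depth and the difference between groups. Nlrp5, a maternal-effect gene of the oocyte, was among the nearest of both Zp2 (r = 0.985) and Astl (r = 0.989), and the other neighbours were Gm13084 for Zp2 (r = 0.986) and Smad2 for Astl (r = 0.977). Zp1 had Mtss1 (r = 0.998) and Rhpn2 (r = 0.996), Zp3 had Gm20548 (r = 0.996) and Wash1 (r = 0.995), and Izumo1r had Smox and Sh3glb2 (both r = 0.997). Cd9 had Runx1t1 (r = 0.972) and Nono (r = 0.962). Cd81 had Rpl3, a ribosomal protein gene (r = 0.981), and Lrrc17 (r = 0.957).

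Other genes of the same families and of the pathway around fertilization were read as lists. Leaving out the 7 genes, 99 genes of the lists were tested, of which 26 were higher and 32 lower, and 21 were DEGs upward and 9 downward, with a median log2 fold change of -0.15 against 0.12 for all tested genes. Over all tested genes 31.2% were higher, 24.1% lower, 23.8% DEGs upward and 6.56% DEGs downward, so the counts of the lists lay near the background, and those of single lists are read against the same shares. Of the 14 genes for fusion at the egg membrane, all tested, 3 were higher and 4 lower (median -0.060), Cd81 and Izumo1r included. CD9 is held on the membrane in a complex with the immunoglobulin proteins of Ptgfrn and Igsf8. Cd9 itself did not pass the test, whereas Ptgfrn rose from 21.5 ± 2.38 to 65.1 ± 16.8 CPM (log2 fold change 1.59, edgeR adjusted p = 1.85e-05) and Igsf8 was at 2.41 and 2.72 CPM (edgeR adjusted p = 0.685). The integrin gene Itgav rose from 6.22 to 17.5 CPM.

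Of 25 tested tetraspanin genes of 31 listed, Cd9 and Cd81 included, 11 were higher and 4 lower, with a median of 1.13. Among them Cd53 rose from 0.344 to 4.89 CPM, Tspan17 from 1.40 to 7.05 CPM and Tspan1 from 9.46 to 38.5 CPM, while Tspan33 fell from 86.0 to 26.7 CPM. Cd53 is a leukocyte tetraspanin. The sums of the immune and granulosa markers given beside Cd81 were also higher in KO libraries, but single markers moved in both directions. The source of the Cd53 counts was not tested. Folr1, a folate receptor and paralog of Izumo1r, went the other way from it, from at most 0.241 to at least 1.41 CPM. The control libraries held 10 Folr1 counts in total, at most 9 in any library, and the gene passed the filter on low counts through the KO libraries.

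Astl belongs to the astacin proteases, and fetuin-B, the product of Fetub, is the inhibitor that keeps ovastacin from hardening the zona too early. Fetub fell from 70.4 ± 4.60 to 18.3 ± 0.456 CPM (SD, n = 4), with a log2 fold change of -1.95 (SE 0.11, edgeR adjusted p = 1.44e-07) and no overlap between groups, whereas Astl did not pass the test. The difference between the changes of Fetub and Astl was not tested. These counts are of oocyte mRNA and do not measure fetuin-B protein. Of the 8 genes in this list 3 were lower and none higher (median -0.57), Tll1 among them with 83.7 and 37.5 CPM. Of 22 cortical granule genes 10 were lower and 2 higher, with a median of -0.39. Of all tested genes 24.1% were lower and 31.2% higher. Among genes that averaged 100 CPM or more 55.2% were lower, with a median of -0.37. The list has genes above and below that level, so neither share is a matched background, and its count was not tested. Its DEGs were, among others, Stxbp3, which rose from 19.9 to 48.3 CPM, Sytl2, a Rab27 effector, which fell from 76.5 to 31.1 CPM and the motor gene Myo5b, which fell from 767 to 382 CPM.

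The ZP-domain family had 11 tested genes, of which 4 were lower, Zp1 and Zp3 among them, and 4 higher (median -0.21). Umodl1, an abundant member of it, fell from 1123 ± 70.6 to 544 ± 69.5 CPM (log2 fold change -1.05, edgeR adjusted p = 1.30e-05). Of 15 tested genes for zona assembly, oocyte-secreted proteins and the transcription factors of zona genes, 7 were lower and 4 higher (median -0.39). Furin, whose product is a convertase able to cut zona precursors, was at 84.2 and 66.6 CPM (edgeR adjusted p = 0.226), while the transcription factors of zona promoters moved in different directions. Figla fell from 21.3 to 13.8 CPM (edgeR adjusted p = 0.0124), and of the genes for its E-protein partners Tcf3 fell from 27.4 to 14.5 CPM (edgeR adjusted p = 0.0195) and Tcf12 rose from 35.5 to 78.3 CPM. Sperm-side genes were mostly silent, with 12 of 28 tested, 3 higher and 3 lower. Izumo1, the ligand of JUNO, had at most 1 count in a control and 4 in a KO library. Among the tested ones Zpbp rose from 0.448 to 1.70 CPM, and Hyal5, Izumo4 and Zp3r fell, from 3.10 to 0.399, 3.91 to 1.42 and 9.50 to 4.68 CPM.

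**Figure D4:**
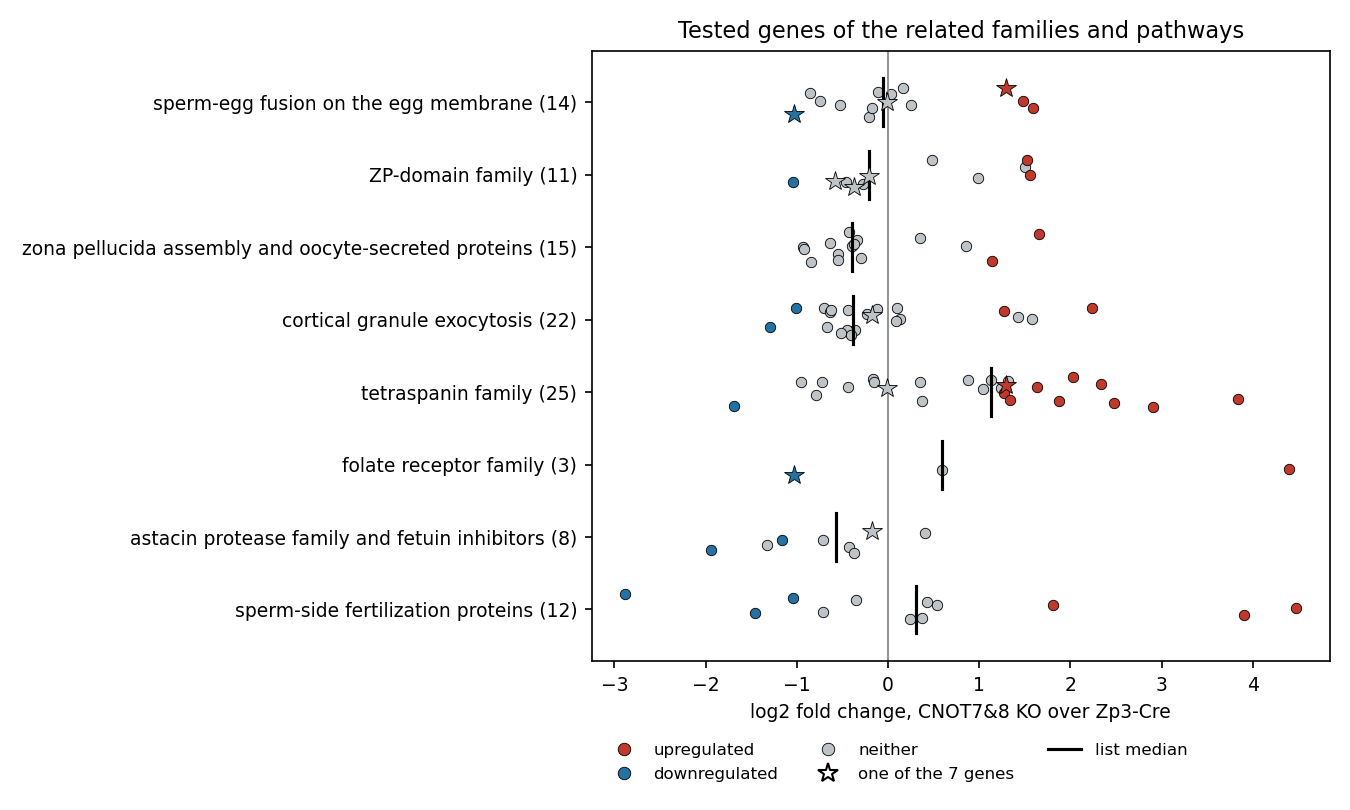
Log2 fold change, CNOT7&8 KO over Zp3-Cre control (horizontal axis), of the tested genes in 8 lists (rows, number tested in brackets); colours mark DEGs, stars the 7 egg coat and fertilization genes and black bars the list medians. The tetraspanin median of 1.13 lies to the right and those of the astacin, cortical granule and zona assembly lists lie to the left of 0. The tetraspanin median is the value of Tspan4, a rare mRNA (0.210 and 0.469 CPM) that did not pass the test.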

How the data were processed

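The authors prepared libraries from 100 GV oocytes each, read them as pairs of 150 bp, aligned the reads to GRCm38 by STAR 2.6.1d within nf-core/rnaseq, and deposited raw counts per gene, neither normalized nor pooled. The submitters' processing notes also name edgeR 3.11. The labels name a stranded total RNA kit with ribosomal RNA removal and the paper a stranded mRNA kit, also with depletion of ribosomal RNA. The counting tool, annotation and strand setting are not given in the sources used here.

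Sample titles gave the groups and replicate numbers. Genes with at least 0.2 CPM in 2 libraries were tested in R 4.3.3 with edgeR 4.0.16 (TMM, quasi-likelihood test, Benjamini-Hochberg adjustment over 19241 genes), and a DEG needed an adjusted p up to 0.05 with a 2-fold change. Single values were compared by exact permutation tests over 70 assignments. Lengths, GC content and 3′ ends came from GENCODE vM21, which held 99.4% of the identifiers. The pipeline was tested on simulated data. Alternatives were library size only, RLE, upper quartile, TMM restricted to genes of 10 CPM or more, other filters, edgeR's exact test, DESeq2 1.42.0, a replicate block and leaving out libraries. Tables and figures used Python 3.11.15, pandas 2.3.3 and matplotlib 3.10.9.

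Named in the text are the 7 genes, for each the 2 genes with the highest r, in each list up to 3 DEGs of at least 1 CPM per direction with the largest change (the 2 most abundant where there were none), the most abundant marker of a list, and Igsf8, Ptgfrn, Furin, Izumo1 and Fetub. Foxl2, Cyp19a1, Amh, Star, Lhcgr, Has2, Ptgs2, Kitl, Gja1, Inha, Gli1, Col3a1, Ptprc, Csf1r, Figla and Tcf3 were named after their values were seen. The same holds for Tspan4 and Spam1. Members and lists were chosen with earlier results of these data known. No libraries of a group agreed within sampling noise. Promoter and protein sequences were not used here.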

Additional observations from a re-analysis of the deposited data

Results flagged for a closer look

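For each of the 7 genes and each group of 4 libraries, the library at the edge was compared with the others by Dixon's criterion for 4 values. Of 14 groups 5 had such a library, where chance would give about 0.7 (1 in 20). Control replicate 1 accounted for 4 of them. It held 3720 CPM of Zp2, against 2271 to 2518 in the other controls, and 674 CPM of Astl, against 444.5 to 467. It held 1284 CPM of Zp3, against 1830 to 1884, and 142 CPM of Izumo1r, against 254 to 264. KO replicate 4 held 1027 CPM of Zp3, against 1408 to 1450 in the other KO libraries. Both are the deepest library of their group, with the least 18S ribosomal RNA, and the part of either in these values was not tested.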

How the results depend on the processing

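Zp1 and Izumo1r passed the threshold, both lower, in all 18 alternatives (log2 fold change -0.61 to -0.30 and -1.21 to -0.76), Cd81 in 14 (0.90 to 1.67) and Zp3 in 4 (-0.49 to -0.099), and these 4 genes kept their direction. With library size only, Zp2 (0.082), Astl (0.11) and Cd9 (0.30) turned positive, 1 of the 7 genes was a DEG, 5 list genes fell as DEGs in place of 9, and 2618 tested genes were lower in place of 4631. With TMM restricted to genes of 10 CPM or more the values were 0.055, 0.084 and 0.27, 1, 5 and 2865. Higher genes were 56.4% of calls under TMM, 74.7% with library size only and 72.6% with TMM restricted to genes of 10 CPM or more. Upper quartile scaling and a filter of 1 CPM in 4 libraries also left 1 DEG among the 7, and Cd9 was at 0.098 and 0.068. Cd9 was also positive with RLE (0.011), a filter of at least 1 count (0.023), DESeq2 (0.013), without control replicate 1 and KO replicate 4 together (0.24) and without control replicate 1 (0.27), control replicate 2 (0.018), KO replicate 1 (0.099) or KO replicate 2 (0.036). Leaving out each library in turn gave -0.17 to 0.27 for Cd9, 2 to 3 lower genes among the 7, 0 to 1 higher, 0 to 2 DEGs and -0.011 (without KO replicate 3) to 0.069 for the log2 ratio of Astl to Zp2; 0 were higher without control replicate 2 or 4 or KO replicate 1 or 2, where Cd81 lost its call. Per kilobase of the longest transcript in place of the exon union, KO levels were 996.7 for Zp2 and 190.1 for Astl, control and KO levels were 24.6 and 24.6 for Cd9, 1.11 and 2.77 for Cd81 and 177 and 86.4 for Izumo1r, with the means in the same order but Astl and Izumo1r overlapping in control. The cause of these shifts was not tested.

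The replicate numbers did not pair the libraries, since deviations of same-numbered libraries correlated at -0.12 to 0.11. With the number as a replicate block, 2 of the 7 genes were lower, 1 was higher and 2 were DEGs, Zp3 lost its call (edgeR adjusted p = 0.0700), Cd9 was at 0.070, and 4201 tested genes were lower and 5511 higher. Cd81 and Cd9, the genes of lowest counts, had the widest intervals.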
